A study of Capra hircus with 3 samples.

Results

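The short loci without a gene name in goat mammary gland are described here, meaning the assembled loci that carry no gene ID and span less than 400 nt from their first to their last base. Of the 50041 loci with deposited values, 34764 carried no gene ID, and 3402 of these met the rule. Their spans ran from 200 to 399 nt, and 1540 of them (45.3%) were shorter than 300 nt. The cut at 400 nt fell inside a continuous range of loci. The longest short loci, XLOC_056156 and XLOC_057201, spanned 399 nt and had 2.46, 3.86 and 2.46 FPKM and 0, 1.29 and 3.87 FPKM (libraries labelled early, peak and late, in that order). The next longer ones, XLOC_000013 and XLOC_004493, spanned 400 nt and had 2.14, 5.64 and 4.90 FPKM and 1.34, 3.33 and 0.373 FPKM in the same order.

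Mammary tissue was taken surgically from 5 Laoshan dairy goats, 4 years old and in the third lactation, at 10 days (early), 90 days (peak) and 210 days (late) after parturition. RNA was extracted from each sample, and equal amounts from the 5 goats of a stage were mixed into 1 library with a strand-preserving kit, so values of single animals were not recorded. With 1 library per stage there was no estimate of the spread between animals, no test was possible, and every difference below compares 3 libraries and not 3 stages. Early, peak and late below mean the libraries with those labels. Whether peak and late are the right way round was not settled, because ratios of named genes in the gene tables of the study, held here in part, tend to run the other way between these libraries. Were the labels exchanged, every statement on peak would be one on late and the reverse. Levels are FPKM, the fragments of a locus divided by its length and by the mapped fragments of the library. In bulk tissue, fewer cells of one type and less RNA per cell cannot be told apart.

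Transcript assemblers place reads that lie outside known genes into loci of their own. Such a short locus can be a piece of an unannotated transcript, the end of a known gene, a part of an intergenic transcript broken up by low coverage, or a small structural RNA. In lactation the secretory epithelium devotes most of its messenger RNA to a handful of milk protein genes, so rarer transcripts are sampled by few fragments. Division by length also makes the FPKM of very short loci large for a small number of fragments, since only fragments that fit inside the locus can be counted.

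Of the 3402 short loci, 0 overlapped a locus with a gene ID. Of the 31362 longer loci without gene ID, 470 had the same coordinates as one. Since a locus without gene ID can be listed with a gene's coordinates, one that overlaps a gene may fail the span rule. The count of 0 is therefore no check on the label. Markers of the tissue were present. Of 10 markers of mammary secretory epithelium, 8 were found by symbol, and their summed level was 217264 FPKM in early, 62506 in peak and 164390 in late. All 8 were at least 2-fold lower in peak than in early. LALBA, which encodes alpha-lactalbumin, had 70053 and 15214 FPKM in early and peak but a listed 0 in late, so that a 0 is only a listed value here. The 3 plasma cell markers summed to 286, 501 and 351 FPKM, and the 2 adipocyte markers found summed to 16.4, 4.93 and 6.16 FPKM. The 4 erythroid markers were not found by symbol.

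The number of fragments behind each short locus could be read from the values themselves. At a given span, the FPKM of a library were whole multiples of 1 smallest step, read here as 1 fragment. Of the values of 5 to 20 steps, 99.5% in early, 99.4% in peak and 99.5% in late lay within 0.05 of a whole number, with each span's step predicted from the other spans alone. For a span of 200 nt the step was 1.77 FPKM in early, 1.53 in peak and 2.06 in late. For a span of 399 nt it was 0.307, 0.257 and 0.352 FPKM, so that 1 fragment in the shortest loci added 5.77 (early), 5.94 (peak) and 5.87 (late) times the FPKM that it added in the longest, although the spans differ by 2.0 times. The span alone set the step, which means that no intron had been taken out of the length of these loci.

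**Figure D1:**
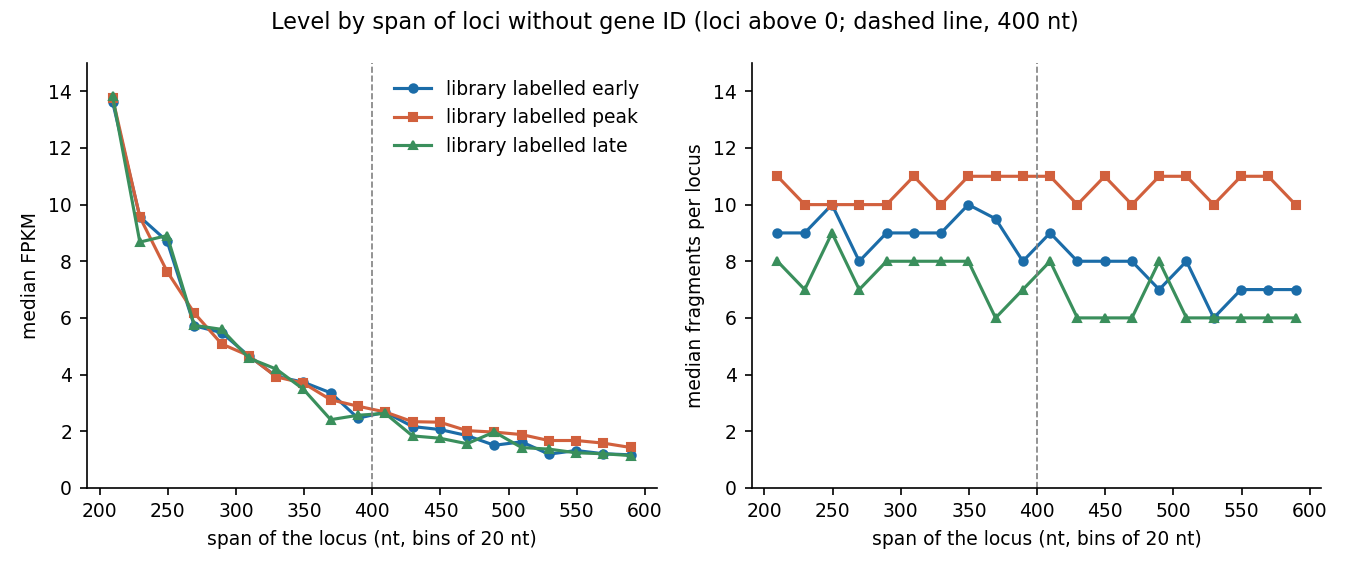
Median FPKM (left) and median fragments per locus (right) of loci without gene ID and above 0, in bins of 20 nt of span, for the 3 libraries; the dashed line marks 400 nt. The median FPKM in early was 13.6 at 200 to 219 nt and 2.46 at 380 to 399 nt, while the median number of fragments in the same bins was 9 and 8.

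Above 0 were 3269 short loci in early, 3280 in peak and 3145 in late. Their median level was 4.68 FPKM (interquartile range 2.11 to 9.61) in early, 4.68 (2.74 to 8.91) in peak and 4.78 (1.99 to 9.63) in late. Behind these medians stood 9, 11 and 7 fragments, and 28.1%, 17.2% and 34.1% of the loci above 0 had fewer than 5. Between the bins of 200 to 219 nt and 380 to 399 nt the median FPKM differed by 5.54 times in early, 4.78 times in peak and 5.40 times in late. The median numbers of fragments in those bins were 9 and 8, 11 and 11, and 8 and 7.

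Against the next longer loci without gene ID, of 400 to 599 nt, the short loci were higher in FPKM and nearly equal in fragments. The 5292 longer ones had medians of 1.5, 1.83 and 1.44 FPKM and of 7, 11 and 6 fragments in early, peak and late. The 26070 loci without gene ID of 600 nt or more had 1.39, 1.42 and 1.38 FPKM. Loci with a gene ID had 6.21, 6.39 and 6.12 FPKM, and the 76 of them that spanned less than 400 nt had 10.9, 11.2 and 11.4 FPKM.

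The highest fragment number of a locus had a step at 10. In 2898 short loci (85.2%) at least 1 library held 10 fragments or more, and in the other 504 none did. The highest of the 3 fragment numbers was 9 in 160 loci and 10 in 522, and it was 11 in 389 and 12 in 283. In 1620 loci (47.6%) exactly 1 library did so, and this was the library labelled peak in 932 of them, early in 413 and late in 275. In 710 loci (20.9%) all 3 libraries held 10 or more. A locus that reached 10 in 1 library alone was by that fact lower in fragments in the others.

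Levels were dominated by a few loci. The short loci held 35.4%, 53.0% and 35.5% of the summed FPKM of all loci in early, peak and late. Summed FPKM is not a share of fragments, because the FPKM of 1 fragment depends on the span. The short loci held 625786, 1021170 and 501256 fragments in the same order. The fragments of all loci were not read from the values, so their share is not given. The 5 most abundant made up 90.2%, 93.4% and 89.3% of the summed FPKM of the short loci. At 100 FPKM or more were 42 loci in early, 30 in peak and 47 in late, and 52 in at least 1 library. The counts of single libraries were 1.23%, 0.882% and 1.38% of the short loci. Of the loci with a gene ID, 2.45%, 1.78% and 2.45% reached this level. Loci without gene ID gave 0.246%, 0.189% and 0.265% at 400 to 599 nt, and 0.0575%, 0.0384% and 0.0499% at 600 nt or more. Of these 52, 26 were at 100 FPKM or more in all 3 libraries and 5 reached 1000 FPKM in at least 1. They were shorter than the rest, with a median span of 251.5 nt, and 39 of them (75%) spanned less than 300 nt. A cut on FPKM itself favours short spans, since 1 fragment adds more FPKM in a shorter locus. In the library of its highest level each of the 52 rested on at least 53 fragments.

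**Figure D2:**
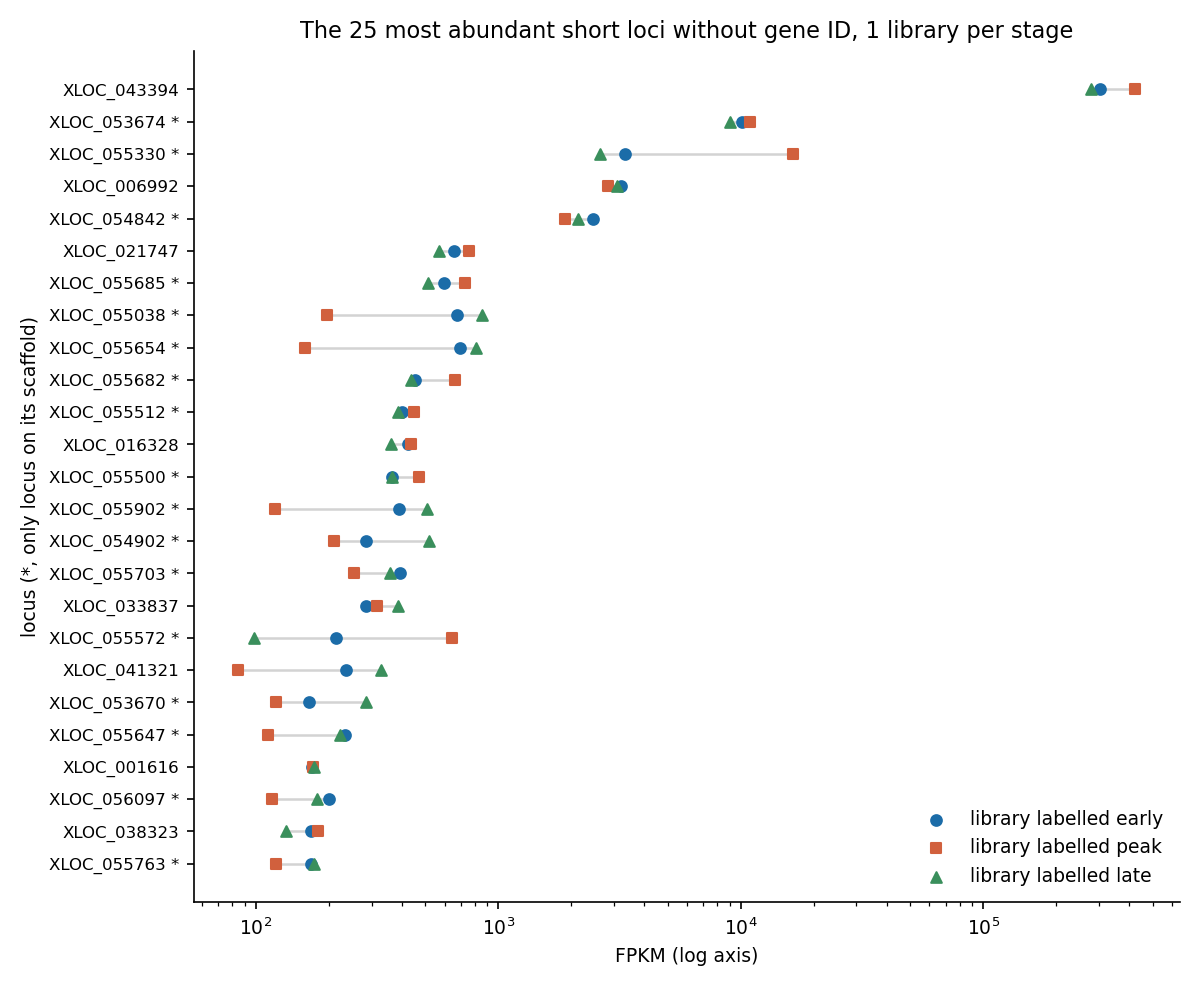
FPKM (log axis) of the 25 short loci with the highest mean over the 3 libraries, 1 point per library; a star marks loci that are alone on their scaffold. XLOC_043394 stands apart at 277639 FPKM or more in every library, and the points of the library labelled peak lie well away from the other libraries for XLOC_055330, XLOC_055038, XLOC_055654, XLOC_055902 and XLOC_055572.

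XLOC_043394, of 296 nt on scaffold NW_005100916.1 at bases 22591669 to 22591964, held 545992 fragments in early, 901320 in peak and 434019 in late. It alone made up 87.2%, 88.3% and 86.6% of the fragments of all short loci. The level in peak was 1.390 times that in early (counting interval 1.385 to 1.395). It lay 275 nt from LOC102175171, whose own levels of 6.64, 6.28 and 6.47 FPKM in early, peak and late did not follow that order.

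The next most abundant locus, XLOC_053674, was the only locus on its scaffold and had 10128, 10874 and 9061 FPKM in early, peak and late. XLOC_055330, also alone on its scaffold, had 3319 FPKM in early, 16427 in peak and 2623 in late. Its level in peak was 4.95 times that in early, with a counting interval of 4.83 to 5.08 from 6930 and 40811 fragments. XLOC_006992 had 3220, 2826 and 3100 FPKM and lay 69.6 kb from ACKR3, an atypical chemokine receptor gene with 2.72, 3.53 and 1.83 FPKM. XLOC_054842 had 2466, 1892 and 2131 FPKM. Of the 5 loci that reached 1000 FPKM, XLOC_055330 alone was 2-fold apart between any 2 libraries.

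Below them, several of the 25 named loci were less than 1.5-fold apart between any 2 libraries. XLOC_021747 had 657, 754 and 570 FPKM and lay 20.3 kb from MAPK1IP1L (12.5, 14.4 and 10.0 FPKM). XLOC_055685 had 595, 729 and 515 FPKM, XLOC_055512 had 399, 449 and 385, and XLOC_055500 had 365, 470 and 363. XLOC_016328 had 423, 435 and 362 FPKM and lay 324 kb from LOC102173562. XLOC_001616 had 170, 172 and 174 FPKM. XLOC_038323 had 169, 180 and 133 FPKM and lay 389 nt from LOC102190909, which at 117, 128 and 95.2 FPKM stood in the same order in the 3 libraries.

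Over the 25, the library labelled peak was the highest in 11 and the lowest in 12. It was the lowest in the following loci. XLOC_055038 had 673, 196 and 859 FPKM in early, peak and late, XLOC_055654 had 693, 159 and 806, and XLOC_055902 had 388, 120 and 508. XLOC_041321, 698 kb from LOC102175901, had 236, 84.7 and 327 FPKM. XLOC_055647 had 234, 112 and 223 FPKM, and XLOC_056097 had 200, 116 and 178. XLOC_054902 and XLOC_053670 were highest in late, at 284, 210 and 519 FPKM and at 166, 121 and 285 FPKM. XLOC_055703 had 394, 253 and 357 FPKM, and XLOC_055763 had 168, 121 and 173.

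Among the loci highest in peak, XLOC_055572 had 215, 647 and 98.3 FPKM, from 202, 715 and 80 fragments. XLOC_055682 had 451, 664 and 436 FPKM. In a different order, XLOC_033837, 420.3 kb from RAPGEF2, had 284, 317 and 386 FPKM and was highest in late. The other 27 of the 52 loci ran from 35.3 to 178 FPKM in early, from 4.25 to 219 in peak and from 16.1 to 193 in late.

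Most of the abundant short loci lay where no neighbour could be named. Of the 3402 short loci, 967 (28.4%) were the only locus on their scaffold, 102 shared a scaffold with other loci without gene ID only, and 2333 had a locus with a gene ID on theirs. Of the 52 loci at 100 FPKM or more, 32 (61.5%) were alone on their scaffold, 3.31% of that class against 0.814% of the loci on scaffolds with a gene. Of the 967 loci alone on their scaffold, 896 (92.7%) ended before base 1000 and 557 began within the first 10 bases. Scaffold lengths were not used, so a place near the start and a short scaffold cannot be told apart. The median levels of the 967 loci were 6.58, 7.34 and 6.75 FPKM against 4.16, 4.13 and 4.20 on scaffolds with a gene, from 11, 13 and 10 against 8, 10 and 7 fragments. How reads that fit several places were assigned is not given in the sources used here.

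On scaffolds with genes, 188 short loci lay within 1 kb of the nearest locus with a gene ID, 670 between 1 and 10 kb, 979 between 10 and 100 kb and 496 farther away. Only 7 of the 52 abundant loci lay within 10 kb. They include XLOC_037881, 411 nt from TOB1, an antiproliferative gene, with 77.4, 56.3 and 103 FPKM, and XLOC_043620, 5.50 kb from TNFRSF21, a death receptor gene, with 80.6, 45.5 and 107 FPKM. TOB1 had 14.1, 12 and 21.4 FPKM and TNFRSF21 95.2, 71.6 and 100 FPKM, each lowest in the library labelled peak, as were the loci beside them. These loci were picked for their neighbours after their values were seen.

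Between libraries, many short loci differed by 2-fold or more, with fewer such loci where fragments were many. From early to peak, 1839 of 3392 short loci were at least 2-fold apart (54.2%), against 35.2% of all loci, with 976 higher in peak (19.7% of all loci) and 863 higher in early (15.5% of all loci). From early to late, 1470 of 3354 were (43.8%), against 25% of all loci, with 608 higher in late (10.2% of all loci) and 862 higher in early (14.8%). From peak to late, 1968 of 3389 were (58.1%), against 42.0% of all loci, with 869 higher in late (17.1%) and 1099 higher in peak (24.9%). The libraries are shared between these comparisons. In the same comparisons, 57.7%, 48.8% and 62.2% of the loci of 400 to 599 nt without gene ID, and 19.9%, 10.8% and 28.0% of the loci with a gene ID, were 2-fold apart.

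The share of loci that were 2-fold apart was lower where fragments were many. From early to peak, it was 70.3% of the short loci with 1 to 9 fragments in the libraries together, 70.2% with 10 to 19, 34.3% with 20 to 49 and 24.2% with 50 to 99. With 200 fragments or more it was 24.2% (15 of 62, 5 higher in peak and 10 lower). Loci of 400 to 599 nt gave 68.2%, 71.1%, 35.2%, 26.4% and 29.0% in these bins. From early to late the share of short loci went from 58.7% with 1 to 9 fragments to 20.6% with 20 to 49 and to 1.75% (1 of 57) with 200 or more. From peak to late it was 72.2%, 35.9% and 33.3% (18 of 54, 13 higher in late and 5 lower). Loci of 400 to 599 nt gave 57.8%, 22.8% and 10.5% (4 of 38, all higher in late) in these bins from early to late, and 69.2%, 43.0% and 33.3% from peak to late.

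**Figure D3:**
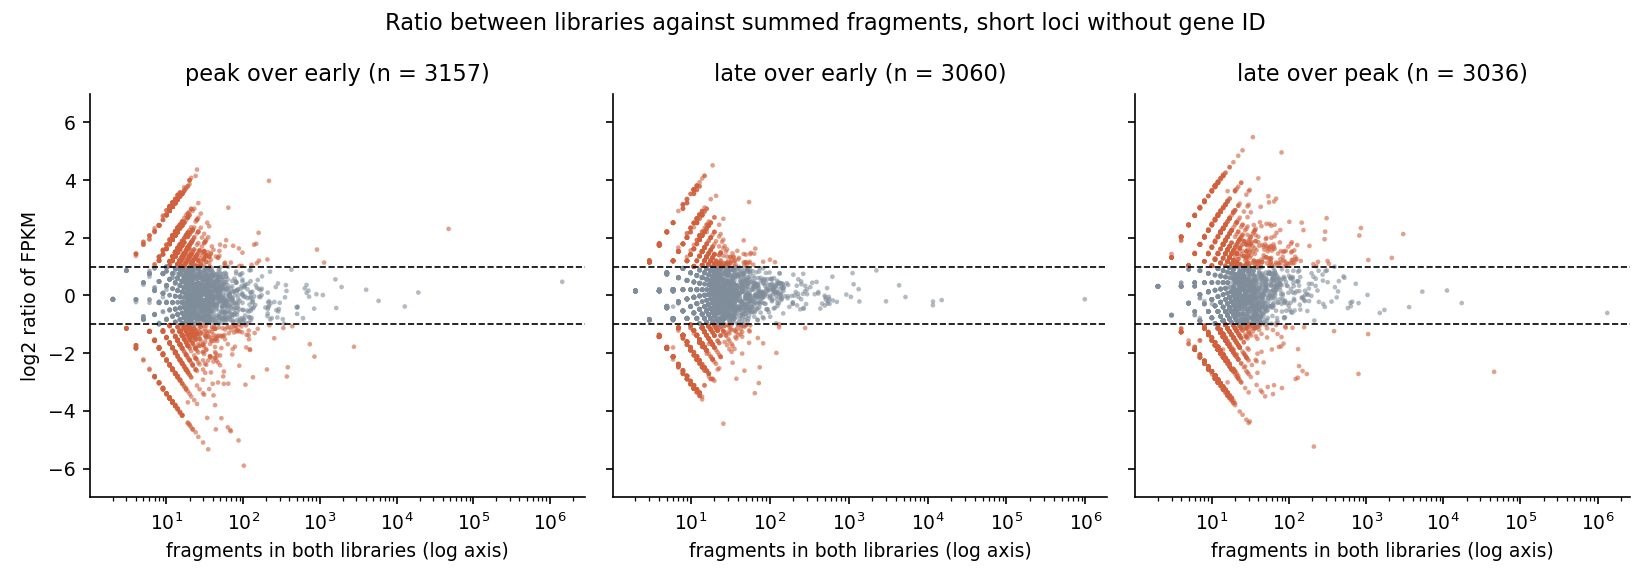
Log2 ratio of FPKM between 2 libraries against the summed fragments of both (log axis), 1 point per short locus above 0 in both; dashed lines mark 2-fold and orange points lie beyond them. The spread narrows with fragments, and at 200 fragments or more 15 of 62 (peak over early), 1 of 57 (late over early) and 18 of 54 (late over peak) loci lie outside the lines.

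Counting error alone left a smaller set. A 95% interval of the ratio was computed from the fragments of both libraries (Clopper-Pearson, for counting error only, since reads copied in the polymerase reaction are not independent molecules). Of the 2-fold differences, 1039 of 1839, 460 of 1470 and 1095 of 1968 had intervals that left out equality, for peak over early, late over early and late over peak. The whole interval lay beyond 2-fold in 217 loci (63 higher and 154 lower in peak), 43 loci (25 higher and 18 lower in late) and 272 loci (166 higher and 106 lower in late). The loci that reached 10 fragments in exactly 1 library were 2-fold apart in 71.1%, 56.9% and 71.3%, and those that did so in all 3 libraries in 15.2%, 7.04% and 22.7%. The split uses the same fragments as the ratios, so this contrast is largely set by the split. The loci at 10 in exactly 1 library held 1152 of the 1839 2-fold differences of peak over early. With at least 10 fragments in both libraries, a limit set after the data were seen, 125 of 948 (31 higher and 94 lower in peak than in early), 69 of 915 (40 higher and 29 lower in late than in early) and 167 of 835 (136 higher and 31 lower in late than in peak) were 2-fold apart, so that the direction held by most of these loci turned in all 3 comparisons. Neither the intervals nor this limit was applied to other loci, so no share over all loci stands beside these counts. Loci without gene ID of 400 to 599 nt leaned the same way at 50 to 99 fragments in the libraries together. Of these, 20 were 2-fold higher and 62 lower in peak than in early. From early to late 13 were higher and 9 lower in late, and from peak to late 72 and 21. At 20 to 49 fragments together, loci of 400 to 599 nt leaned the other way in 2 comparisons. There 290 were higher and 196 lower in peak than in early, and 253 higher and 301 lower in late than in peak. From early to late 128 were higher and 105 lower in late. The median log2 ratio of short loci at 1 FPKM or more in both libraries was 0.0668 for peak over early (n = 2637), -0.0411 for late over early (n = 2558) and -0.0568 for late over peak (n = 2476).

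With at least 20 fragments in all 3 libraries, 268 short loci could be ordered across libraries. In 194 of them (72.4%) no 2 libraries were 2-fold apart. In 30 (11.2%) the library labelled peak was at least 2-fold below both others, in 5 it was at least 2-fold above both, in 3 late was above both, in 2 late was below both, and early was never the highest or lowest by 2-fold. The minimum of 20 fragments leaves out loci with few fragments in any library. Among those left out were the 9 short loci beside SLC34A2, described further on, each at least 2-fold higher in early than in both others. By the same rule, of 320 loci without gene ID of 400 to 599 nt, 40 (12.5%) were lowest in peak and 0 were highest. At 10 FPKM or more in every library, a limit set after the data were seen, 25 of 373 short loci (6.70%) and 305 of all 4956 loci (6.15%) were lowest in peak, and 9 (2.41%) and 60 (1.21%) were highest. The secretory epithelium markers also stood lower in peak (all 8 found, at least 2-fold below early) and 2 of the 3 plasma cell markers stood at least 2-fold higher in peak than in early. Their part in the order of the short loci was not tested.

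The 30 loci lowest in peak were 2.01 to 7.01 times higher in early and 2.12 to 6.40 times higher in late than in peak. Of these, 15 were alone on their scaffold and 5 lay within 10 kb of a gene, among them XLOC_002143 beside KCNJ15, described further on. XLOC_024240, 378 nt from LPIN1, a phosphatidate phosphatase gene of lipid synthesis, had 34.1, 16.9 and 38.5 FPKM in early, peak and late, and LPIN1 had 95.1, 21.8 and 101 FPKM. XLOC_028021, 5.06 kb from SNAI1, had 40.6, 17.1 and 37.3 FPKM, and SNAI1, a transcriptional repressor gene, had 0.130, 1.18 and 0.287 FPKM, highest in peak. XLOC_032322 beside MYOC and XLOC_038187 beside RFNG had 32.5, 14.0 and 30.6 FPKM and 26.9, 9.38 and 26.4 FPKM, whereas MYOC had 25.1, 31.9 and 27.8 FPKM and RFNG 31.8, 29.3 and 28.1 FPKM. A short locus thus shared its neighbour's order in some cases and not in others. The loci of this and the next paragraph that no rule on rank had named were picked after their values were seen.

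The 5 loci highest in peak were XLOC_055330 and XLOC_055572, given above, and 3 on scaffolds with genes. XLOC_050366, 2.34 kb from IGF2, a growth factor gene, had 99.3, 219 and 86.3 FPKM from 313, 823 and 238 fragments, and IGF2 had 4.53, 21.0 and 1.74 FPKM in the same order. XLOC_031964, 570 nt from TGFB2, another growth factor gene, had 9.43, 19.2 and 8.87 FPKM while TGFB2 had 11.2, 13.0 and 10.1 FPKM. XLOC_053284, 21.6 kb from LOC102191230, had 17.8, 38.8 and 10.7 FPKM. The 3 loci highest in late were XLOC_024894, 82 nt from PPP1R26, with 9.91, 6.23 and 22.3 FPKM, XLOC_027496 with 24.7, 24.9 and 51.9 FPKM and XLOC_054854 with 14.6, 16 and 34.5 FPKM. The 2 lowest in late were XLOC_055572 and XLOC_046048, 22.0 kb from YWHAG, with 50.9, 54.5 and 25.4 FPKM.

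Among short loci at 10 FPKM or more in both libraries, the highest ratios of peak over early were all on scaffolds of their own. After XLOC_055330 they were XLOC_055883 (12.3 and 55.4 FPKM, log2 ratio 2.17), XLOC_055740 (18.9 and 65.5 FPKM, 1.79) and XLOC_055510 (35.3 and 119 FPKM, 1.76). All 3 were lower in late than in early, at 9.03, 12 and 16.1 FPKM. XLOC_055444 was alike, with 34.0, 95.2 and 10.3 FPKM from 23, 75 and 6 fragments. Its log2 ratio of late over peak, -3.21, was the lowest of the 420 loci compared. It was followed by XLOC_055510 at -2.90, XLOC_055572 at -2.72 and XLOC_055330 at -2.65. Outside the 10 FPKM minimum, XLOC_056668, alone on its scaffold, had 3.95, 62.1 and 1.65 FPKM from 11, 206 and 4 fragments. It was chosen after its values were seen.

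From early to late, with 541 loci at 10 FPKM or more in both, the differences were smaller. The highest log2 ratios were 1.62 for XLOC_043521, 1.47 for XLOC_054691, 1.45 for XLOC_055631 and 1.34 for XLOC_055479, with levels in late of 64.1, 40.3, 46.4 and 37.9 FPKM. They rested on few fragments, 18, 17, 19 and 11 in early and 48, 41, 45 and 24 in late. For XLOC_055479 the counting interval of the ratio, not in log2, ran from 1.19 to 5.72. XLOC_043521 had 20.8, 5.90 and 64.1 FPKM and lay 2.81 kb from MOCS1, a gene of molybdenum cofactor synthesis with 45.9, 13.5 and 62.9 FPKM, lowest in peak like the short locus. The lowest ratios were -2.49 for XLOC_012324, -1.95 for XLOC_028439 (44.4, 4.25 and 11.5 FPKM, 192 kb from FAM49B), -1.72 for XLOC_055444 and -1.68 for XLOC_012320. In early these 4 held 65, 27, 23 and 26 fragments, and in late only 10, 6, 6 and 7. From peak to late the highest were 2.68 for XLOC_002136, 2.55 for XLOC_002142, 2.52 for XLOC_057321 (37.5, 10.8 and 61.9 FPKM) and 2.34 for XLOC_055654.

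Several of the strongest ratios came from 2 stretches of genome. The first lay beside KCNJ15, the gene of an inwardly rectifying potassium channel, which had 28.7, 7.38 and 26.9 FPKM in early, peak and late. In the 40 kb before it on scaffold NW_005100612.1 were 24 loci without gene ID, and 10 of these had at least 50 FPKM in early, 4 of them short. XLOC_002135 had 139, 24.7 and 114 FPKM, XLOC_002136 had 98.3, 14.0 and 89.7, XLOC_002142 had 105, 14.7 and 86.5, and XLOC_002143, which ended 1.68 kb from the gene, had 124, 21.0 and 101. These were the 4 lowest ratios of peak over early among the 450 short loci at 10 FPKM or more in both libraries, with log2 values of -2.49, -2.81, -2.83 and -2.56. Lower ratios lay outside that minimum. Examples, picked after their values were seen, were XLOC_055206 (138, 4.25 and 70.8 FPKM, log2 ratio -5.03) and XLOC_048440 (84.0, 9.85 and 39.1 FPKM, -3.09). Over the 10 loci, short and longer, the log2 ratio ran from -3.29 to -2.24 for peak over early and from -0.69 to -0.13 for late over early, between bases 13070052 and 13087772. KCNJ15 itself was 3.89-fold lower in peak than in early. The 10 loci were kept for a high level in early, so that their order is partly set by that choice. The other 14 of the 24 had at most 7.31 FPKM in early, 1.28 in peak and 8.49 in late, and 12 of them were highest in late, as the gene was not. In 12 of the 14 early was above peak, and in XLOC_001891 (0.509, 1.28 and 3.78 FPKM) it was below.

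Several of these positions held 2 loci each with the same coordinates. XLOC_001888 shared the coordinates of XLOC_002135 and had 7.31, 0.561 and 6.87 FPKM, 5.31% of the level of its partner as a mean over the libraries. The values carry no strand, although the libraries kept it, so which strand each locus stands for is not known here. XLOC_001885, 21.0 kb from the gene, was listed at 0 in early and peak and had 4.25 FPKM in late.

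The second stretch lay between gene ID 106502198, which has no symbol in the gene table used, and SLC34A2, the gene of a sodium-dependent phosphate transporter. SLC34A2 had 162, 16.6 and 96.5 FPKM in early, peak and late, 9.76-fold lower in peak than in early. The gene ID had 2 entries at the same coordinates, with 85.5, 9.16 and 25.7 FPKM and with 4.10, 0.438 and 0.547 FPKM. Between them on scaffold NW_005100696.1 were 24 loci without gene ID, 9 of them short, and all 9 were at least 2-fold higher in early than in both other libraries. Together they held 417 fragments in early, 19 in peak and 65 in late, a 21.9-fold difference in fragments between early and peak. That fold is not corrected for library size, so it is a different measure from the FPKM fold of SLC34A2. The median FPKM of the 9 short loci was 31.1 in early and 0.961 in peak. XLOC_012324 had 78.4, 3.09 and 13.9 FPKM and XLOC_012320, 290 nt from the gene ID, had 41.3, 5.45 and 12.9. XLOC_012329 had 31.1, 0.522 and 7.84 FPKM from 100, 2 and 22 fragments. The others ran from 6.99 to 38.3 FPKM in early. The 15 longer loci between them followed the same order in early and peak, all at least 2-fold higher in early, and 13 of 15 were at least 2-fold higher in early than in late. SLC34A2 was 1.68-fold lower in late than in early, while the median of the short loci went from 31.1 to 5.06 FPKM. The stretch was chosen because XLOC_012324, XLOC_012320 and XLOC_012334 ranked among the most different loci.

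**Figure D4:**
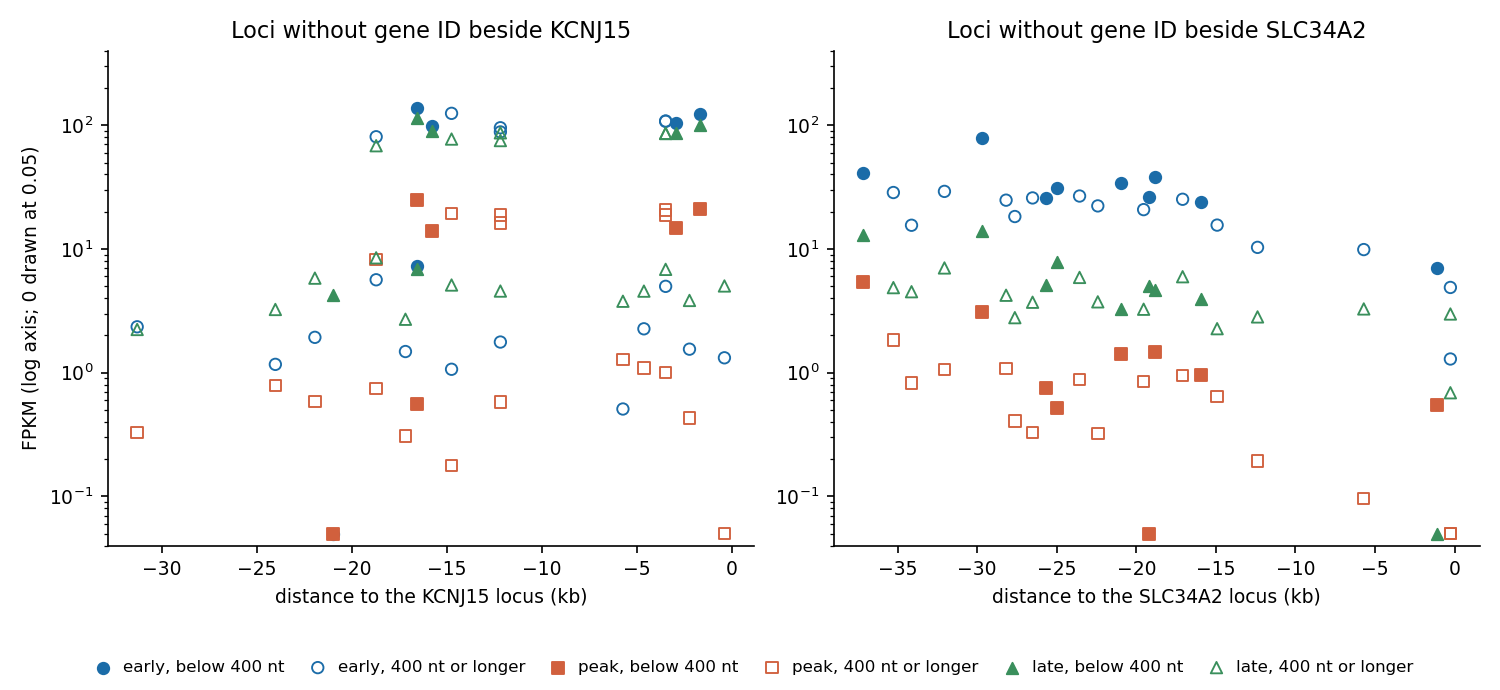
FPKM (log axis, 0 drawn at 0.05) of loci without gene ID against their distance before KCNJ15 (left, 24 loci) and SLC34A2 (right, 24 loci), with filled symbols for spans below 400 nt and open ones for longer spans. Beside KCNJ15 10 loci at 80.7 to 139 FPKM in early stand at 8.26 to 24.7 FPKM in peak, and beside SLC34A2 each locus is highest in early.

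Over all short loci near genes, ratios were compared with those of the nearest gene. For short loci within 1 kb of a gene, with 20 fragments or more in the libraries together and a gene at 1 FPKM or more in both, the Spearman correlation of the log2 ratios across loci was 0.40 (n = 101) for peak over early, 0.29 (n = 79) for late over early and 0.57 (n = 92) for late over peak. Between 1 and 10 kb it was 0.38 (n = 257), 0.21 (n = 203) and 0.44 (n = 227), and between 10 and 100 kb 0.40 (n = 294), 0.11 (n = 244) and 0.40 (n = 266). Beyond 100 kb it was -0.19 (n = 104), -0.08 (n = 108) and -0.20 (n = 90). The points share the libraries and, where several loci lie beside one gene, the gene, so these values are descriptions.

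**Figure D5:**
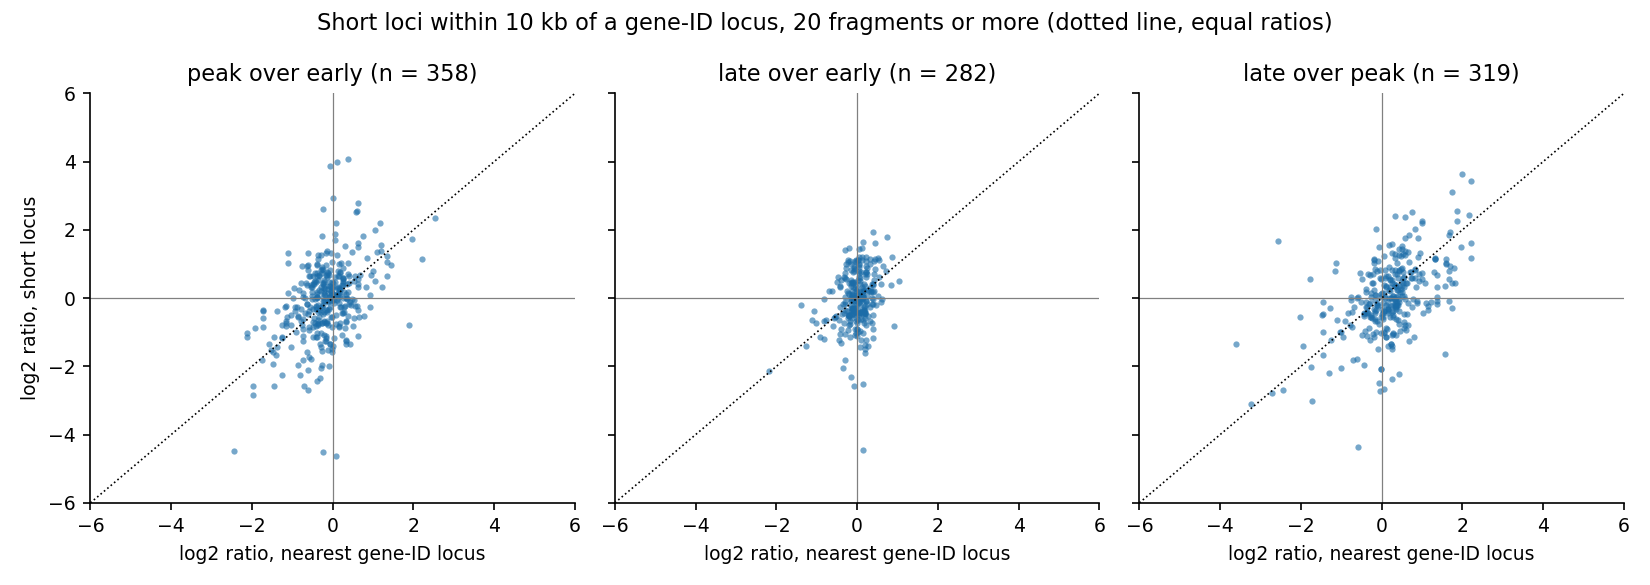
Log2 ratio of FPKM of short loci within 10 kb of a gene-ID locus (vertical axis) against that of the gene (horizontal axis), 20 fragments or more in the libraries together, 1 point per short locus; the dotted line marks equal ratios. Over 358, 282 and 319 loci the Spearman correlation was 0.39, 0.23 and 0.49.

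Genes of milk synthesis and of ribosomal proteins were also looked up among the neighbours. Over all loci with a gene ID, 720 of 15277 (4.71%) were the nearest to a short locus within 10 kb. Of the 858 short loci within 10 kb of a gene, 3 lay beside 3 of the 17 genes found on a list of milk protein and milk fat genes. XLOC_037226 beside ACACA, the gene of acetyl-CoA carboxylase, had 15.9, 1.04 and 4.25 FPKM (13, 1 and 3 fragments) while ACACA had 106, 51.1 and 196 FPKM. XLOC_040770, 84 nt from MFGE8, a milk fat globule protein gene, had 4.67, 5.55 and 10.7 FPKM, and XLOC_047119 beside SCD, the gene of a fatty acid desaturase, had 1.18, 4.47 and 2.03 FPKM. Another 2 lay beside 2 of the 67 ribosomal protein genes found, XLOC_036564 beside RPL13A with 1.5, 0.683 and 8.56 FPKM and XLOC_029011 beside RPL7 with 2.91, 3.79 and 4.80 FPKM. All 5 rested on 24 fragments or fewer in each library. Histone genes were not found by symbol.

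Some loci were listed at 0 in 1 library and were well above 0 in another. There were 441 short loci listed at 0 in at least 1 library, and 61 of these had 10 FPKM or more in another. In early, peak and late, 133, 122 and 257 of the 3402 short loci were listed at 0, against 868, 646 and 1679 of all 50041 loci. Of the 5292 loci without gene ID of 400 to 599 nt, 5014, 5133 and 4859 were above 0. XLOC_029821 had 32.2 FPKM in early and 33.3 in late, from 39 and 35 fragments, and was listed at 0 in peak, with an upper counting bound of 0.0840 for the ratio of peak over early. The nearest gene, TRPS1, lay 1320 kb away and was highest in peak, with 38.8, 60.1 and 22.1 FPKM. XLOC_055421, alone on its scaffold, was listed at 0 in early and had 29.1 and 2.20 FPKM in peak and late. XLOC_012334, in the stretch beside SLC34A2, had 26.2, 0 and 5.06 FPKM. XLOC_002779, 38.3 kb from ACVR2A, an activin receptor gene, had 20.2, 0 and 8.60 FPKM, and XLOC_055484 had 1.57, 18.4 and 0 FPKM.

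Short loci also lay near each other. Another short locus lay within 10 kb of 823 of them, and 106 groups of at least 3 held 485. The closest pairs with different coordinates lay 56 nt apart (XLOC_002953 and XLOC_002954, with 13.2, 8.31 and 13.6 FPKM and 16.5, 9.12 and 11.1 FPKM), 56 nt apart (XLOC_051670 and XLOC_051671) and 57 nt apart (XLOC_008823 and XLOC_008824). Of the 3 groups that held a locus at 100 FPKM or more, 1 lay beside KCNJ15. Another held XLOC_001614, XLOC_001615 and XLOC_001616, with 44.2, 50.2 and 52.2 FPKM, 129, 96.2 and 106 FPKM, and 170, 172 and 174 FPKM, 913 to 915 kb from PLOD2. The last held XLOC_055238, XLOC_055239 and XLOC_055240, with 13.2, 5.64 and 9.18 FPKM, 7.98, 1.55 and 4.23 FPKM, and 147, 143 and 120 FPKM. The largest group held 16 short loci in 42.2 kb, 139 to 181 kb from the nearest gene, LOC106503691, with 1.02 to 18.1 FPKM in early, 2.48 to 16.8 in peak and 2.78 to 21.0 in late.

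In 17 cases 2 short loci had the same coordinates. The lower of the pair stood at a median of 62.1% of the level of the higher (interquartile range 52.1% to 80.7%), as a mean over the libraries. Only beside KCNJ15 was it under 10%. In XLOC_046898 and XLOC_046903, 359 nt long, the levels of 98.0, 116 and 154 FPKM and of 40.3, 49.3 and 67.8 FPKM stood in the same order. In XLOC_007283 and XLOC_007345, picked after their values were seen, they did not, as the first had 20.5, 1.47 and 45.7 FPKM and the second 10.6, 11.6 and 19.4 FPKM.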

How the data were processed

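Total RNA from mammary gland of 5 goats per stage was pooled by the authors into 1 stranded library per stage, sequenced as read pairs, mapped with TopHat2 2.0.9, assembled with Cufflinks 2.1.1, merged with Cuffmerge and quantified with Cuffdiff. The methods state that transcripts under 200 nt, with a single exon or with few reads were removed. The steps of the short loci followed the span alone, as for loci with a single exon. How this goes with the stated removal is not given in the sources used here. The deposited values are FPKM for 50041 loci, 1 column per library, and the columns were assigned to stages by the sample labels. Since that assignment is in doubt for peak and late, their exchange was tried as an alternative. No other per-sample column was used.

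Coordinates are given as deposited, counted from 1. The assembly is not named in the values and no genome was used, so no sequence is shown. Gene IDs were matched to the ARS1.2 gene table for symbols only (14393 of 15277 loci). Distances are to the nearest locus with a gene ID on the same scaffold.

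In the deposited values, 41.2%, 46.7% and 41.7% of those above 0 (early, peak, late) have 7 significant digits, and 95.7%, 99.3% and 97.3% of these end in 5, as the mean of a pair of values with 6 digits would. What was averaged is not given in the sources used here. Steps were fitted per library over 200 to 599 nt. Of the values of 1 to 4 steps, 49.7%, 89.2% and 63.3% were whole within 0.05, and 99.3%, 96.7% and 98.7% of the rest lay at 1 relative offset (0.0949, 0.0229 and 0.0645), so rounding still gave the number. 

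Ratios are of FPKM, with 0 set to 0.001, and 2-fold or more counts as different. Members, lists and tests were chosen with earlier results of these data known. Loci named are the 25 most abundant, the 4 strongest ratios each way at 10 FPKM or more, the 5 highest listed at 0 elsewhere, those at the span cut, the closest pairs and groups, and others where stated. With 1 library per stage, no test was run. Alternatives were a 4-fold threshold, pseudocounts, filters on FPKM and fragments, other span cuts, centring, and exchange of the columns labelled peak and late. Computation used pandas 2.3.3, scipy 1.17.1 and numpy 2.4.6 under Python 3.11.15, with figures drawn in matplotlib 3.10.9.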

Additional observations from a re-analysis of the deposited data

How the results depend on the processing

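Counts of short loci at least 2-fold apart are given in the order peak over early, late over early, late over peak. They were 1839, 1470 and 1968, and became 889, 681 and 1072 at 4-fold, 1134, 824 and 1114 at 1 FPKM or more in both libraries, 819, 638 and 874 below 300 nt, and 3189, 2593 and 3373 below 500 nt. With at least 10 fragments in both libraries, a setting chosen after seeing the data, 125 of 948, 69 of 915 and 167 of 835 were 2-fold apart, and the share of these higher in the stage named first moved from 53.1%, 41.4% and 44.2% to 24.8%, 58.0% and 81.4%. Pseudocounts of 0.1 and 1, leaving out loci listed at 0, centring and exchanging peak and late kept the counts within 1.5 times, though the exchange gave 41.4%, 53.1% and 55.8%.

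The median log2 ratio of 0.0668, -0.0411 and -0.0568 reversed at 10 FPKM or more in both libraries (-0.0741, 0.0424 and 0.182) and with peak and late exchanged (-0.0411, 0.0668 and 0.0568). It was 0.0753, -0.0773 and -0.149 on log2(FPKM + 1), 0.0403 and -0.0480 (first 2 comparisons) below 300 nt, and -0.0303 and -0.0420 (last 2) below 500 nt. The median FPKM in early, peak and late was 4.46, 4.49 and 4.22 with loci listed at 0 included, 7.75, 7.76 and 7.50 below 300 nt, and 3.14, 3.27 and 3.20 below 500 nt. Of the 52 loci at 100 FPKM, 26 reached it in all 3 libraries. By construction, these settings keep fewer or other loci, and for the median ratio the cause was not tested.

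No replicate was left out, since none exists. No paired analysis was possible because the stages have 1 library each. A median of 9, 11 and 7 fragments in early, peak and late limits single ratios.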
